A study of Capra hircus with 2 samples.

Results

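Transcript levels of 9 enzymes of glycolysis and glycogen breakdown were examined in goat skeletal muscle, described as longissimus thoracis, a back muscle. The members were chosen by transcript accession, before any filter on level but with earlier results of these data known. All 9 were listed in both libraries, out of 11663 accessions listed in either. They are glycogen phosphorylase of muscle (PYGM, NM_175786), the muscle form of phosphofructokinase (PFKM, NM_001075268), triosephosphate isomerase (TPI1, NM_001013589), glyceraldehyde-3-phosphate dehydrogenase (GAPDH, NM_001034034), phosphoglycerate kinase (PGK1, NM_001034299), the enolases ENO1 (NM_174049) and ENO3 (NM_001034702), and the lactate dehydrogenase subunits LDHA (NM_174099) and LDHB (NM_174100). The tissue came from Chinese Xuhuai goats at 6 months of age and from fetuses at day 90 of a gestation period of 150 days. The source of both samples is labelled skeletal muscle, and the sampling text, the same for both, describes the fetuses. Whether the same muscle was taken at 6 months could therefore not be checked. No allele, transgene or agent is named in the labels of either stage. Each stage had 1 RNA sequencing library, how many animals each library came from is not stated in the labels, and no difference below has a replicate check. The 6-month library held 9144138 unique reads and the fetal library 12811117.

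The deposited files list RefSeq accessions without symbols. The symbols used here, those of cattle transcripts, came with the member list, and none of the accessions in the files was found in the goat RefSeq gene table (assembly ARS1.2), so the pairing was not checked against an annotation. By symbol or synonym, that table does hold all 9 genes, and it places 18 other protein-coding genes between TPI1 and GAPDH. Other genes of the pathway, and markers of muscle and of other cell types, were not analysed here because their accessions are not paired with symbols. The labelled tissue was therefore not checked. The muscle forms among the members, PYGM, PFKM and ENO3, had reads in both libraries, but so did every other member. In a piece of tissue, fewer cells of a type and less RNA per cell cannot be told apart.

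Glycogen is the carbohydrate store of muscle. Glycogen phosphorylase releases glucose units from it in phosphorylated form, and glycolysis turns these into pyruvate with a gain of ATP and no need of oxygen. Lactate dehydrogenase then interconverts pyruvate and lactate. Several steps are carried out by isozymes encoded by separate genes: ENO3 is the enolase of skeletal muscle in mammals and ENO1 the widely expressed form, while LDHA encodes the subunit that predominates in fast skeletal muscle and LDHB the one that predominates in heart.

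Of the 9 transcripts, 7 were at least 1 log2 unit higher at 6 months (PYGM, PFKM, TPI1, GAPDH, PGK1, ENO3 and LDHA), and the other two, ENO1 and LDHB, were at least 1 log2 unit lower at 6 months. A difference here is log2(RPKM + 1) of the 6-month library minus that of the fetal library, where RPKM is the read number normalised to transcript length and library total, and a difference of at least 1, about 2-fold, is called. All 9 passed the minimum, an RPKM of 1 at one stage or the other. Over the 9705 accessions that passed it, 9.46% were called higher at 6 months and 35.1% higher in fetal muscle. The median difference was 2.71 over the members and -0.61 over all accessions compared. Among the 965 accessions that reached 100 RPKM at one stage or the other, as each of the 9 did, 29.4% were called higher at 6 months and 37.6% higher in fetal muscle. This last comparison was added after the values were seen. Its cut can be passed through a single stage: PFKM fell short of it before birth (87.0 RPKM), ENO1 (77.3 RPKM) and LDHB (97.7 RPKM) after birth. The cut thus selects partly on the difference being counted, so these percentages are not a background matched for level.

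**Figure D1:**
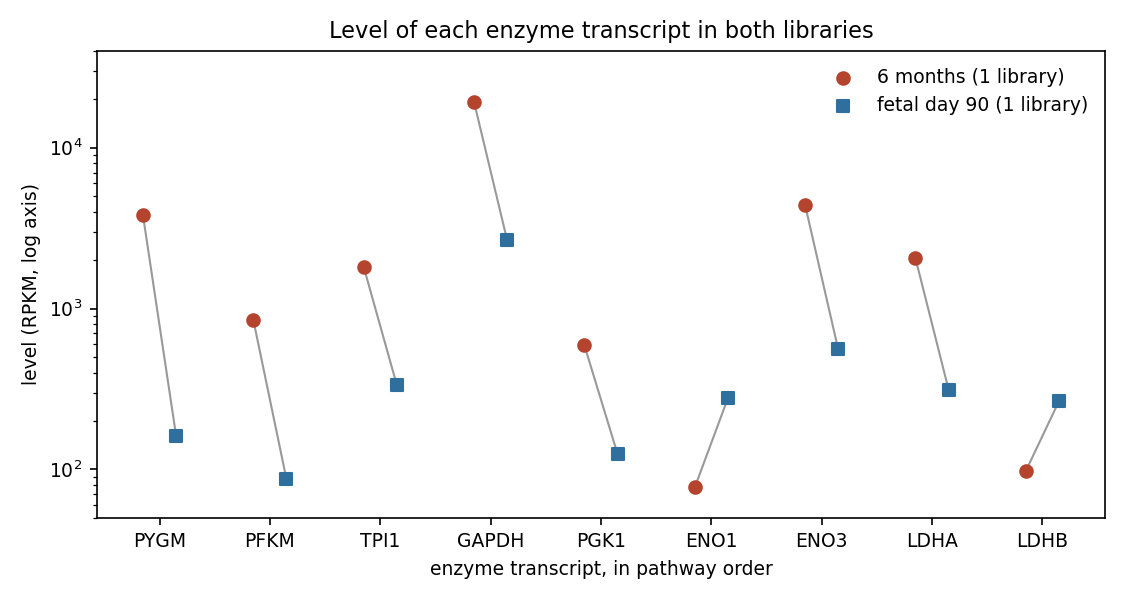
Level of each enzyme transcript in RPKM (log axis), with 1 point for the 6-month library (circles) and 1 for the fetal library (squares), joined per transcript. PYGM has the steepest line, 3797 RPKM at 6 months and 162 in fetal muscle, and ENO1 and LDHB are the 2 transcripts whose 6-month point is the lower one.

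The 9 transcripts together took 5.16% of the 6-month reads (exact binomial 95% interval 5.15% to 5.18%) and 0.700% of the fetal reads (0.695% to 0.704%). Their share of reads was 7.38 times as high at 6 months (7.33 to 7.44). These intervals, and all others given here, cover counting error only, and reads without molecular identifiers are not independent molecules. GAPDH alone carried 2.46% of the 6-month reads and 0.340% of the fetal reads. Without it, the remaining 8 took 2.71% at 6 months and 0.360% in fetal muscle. Of the 50 accessions with the highest RPKM, 5 were members at 6 months and 0 were members in fetal muscle.

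PYGM, the member of the list that acts in glycogen breakdown, showed the widest difference. This phosphorylase, which frees glucose units from muscle glycogen, had 99096 reads (3797 RPKM) at 6 months and 5929 reads (162 RPKM) in fetal muscle. Its share of reads was 23.4 times as high at 6 months (95% interval 22.8 to 24.0), a difference of 4.54 log2 units. Only 27 of the 9705 accessions compared had a larger difference in favour of 6 months. PYGM ranked 22 of 10850 accessions by RPKM at 6 months and 450 of 11393 in fetal muscle.

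PFKM encodes the muscle subunit of phosphofructokinase, which catalyses the committed step of glycolysis. It had 21971 reads (849 RPKM) at 6 months and 3155 reads (87.0 RPKM) in fetal muscle. The share of reads was 9.76 times as high at 6 months (9.40 to 10.1), a difference of 3.27 log2 units, the second largest of the list. In the fetal library PFKM was the lowest of the 9 transcripts per length.

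TPI1, which interconverts the triose phosphates formed by aldolase, had 22277 reads (1814 RPKM) at 6 months and 5758 reads (335 RPKM) in fetal muscle. Its share of reads was 5.42 times as high at 6 months (5.27 to 5.58), a difference of 2.43 log2 units. It ranked 49 at 6 months and 233 in fetal muscle.

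GAPDH, which oxidises glyceraldehyde 3-phosphate and is often used as a reference gene for expression, had 224555 reads (19200 RPKM) at 6 months and 43518 reads (2656 RPKM) in fetal muscle. It was the most abundant member in both libraries and ranked 3 among all accessions at 6 months and 60 in fetal muscle. The share of reads was 7.23 times as high at 6 months (7.16 to 7.30), a difference of 2.85 log2 units. GAPDH has processed pseudogenes in mammals, and the header names only unique reads, so how reads shared with near-identical copies were counted is not known and the level is uncertain to that extent. The same limit applies to reads that isozymes share.

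PGK1, the first ATP-forming enzyme of the pathway, had 10001 reads (590 RPKM) at 6 months and 2967 reads (125 RPKM) in fetal muscle. Its share of reads was 4.72 times as high at 6 months (4.53 to 4.92), the smallest ratio among the 7 transcripts that were higher at that stage. The difference of 2.23 log2 units was still exceeded by only 271 of the accessions compared.

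**Figure D2:**
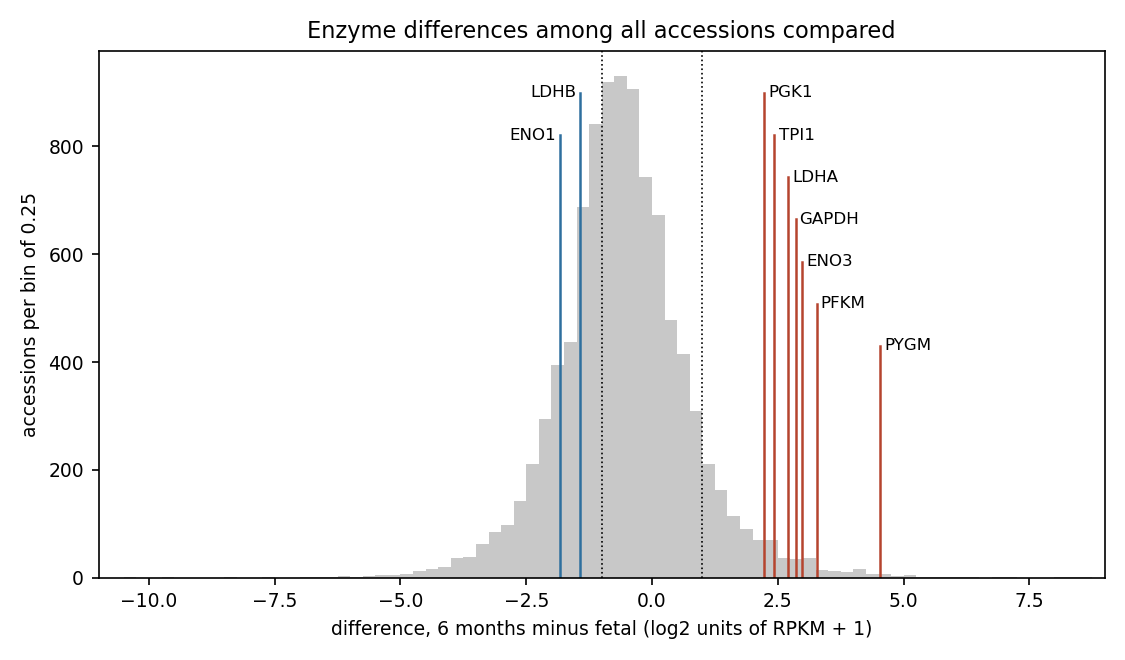
Difference between the 6-month and the fetal library in log2 units of RPKM + 1 for all 9705 accessions compared (grey histogram, bins of 0.25), with a vertical line for each of the 9 enzymes; dotted lines mark differences of -1 and 1. The 7 enzymes higher at 6 months lie in the right tail, from 2.23 for PGK1 to 4.54 for PYGM, and ENO1 (-1.83) and LDHB (-1.43) lie left of the dotted line at -1, below the lower quartile of all accessions compared (-1.30).

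The enolases, which form phosphoenolpyruvate, differed in opposite directions. ENO3 had 58437 reads (4392 RPKM) at 6 months and 10369 reads (556 RPKM) in fetal muscle, a share of reads 7.90 times as high at 6 months (7.73 to 8.06) and a difference of 2.98 log2 units. ENO1 had 1276 reads (77.3 RPKM) at 6 months and 6401 reads (277 RPKM) in fetal muscle, so the fetal share of reads was 3.58 times as high as that at 6 months (3.37 to 3.81), a difference of -1.83 log2 units. ENO3 was the more abundant enolase in both libraries. A difference below that of ENO1 was found for 13.5% of the accessions compared.

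Per length, the ENO3 level was 56.8 times that of ENO1 at 6 months (95% interval 53.8 to 60.1) and 2.01 times that of ENO1 in fetal muscle (1.95 to 2.07). ENO3 thus made up 98.3% of the summed enolase RPKM at 6 months and 66.8% in fetal muscle. The ratio at 6 months was 28.3 times the fetal ratio (exact conditional interval 26.5 to 30.2). This value holds whatever scaling is used between the libraries, since both transcripts of a library share its total. The enolase RPKM summed over both genes was 4469 at 6 months and 833 in fetal muscle, 5.37 times as high at 6 months.

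The subunits of lactate dehydrogenase showed the same kind of contrast. LDHA had 33483 reads (2050 RPKM) at 6 months and 7171 reads (313 RPKM) in fetal muscle, a share of reads 6.54 times as high at 6 months (6.38 to 6.71) and a difference of 2.71 log2 units. LDHB had 1144 reads (97.7 RPKM) at 6 months and 4352 reads (265 RPKM) in fetal muscle. The fetal share of LDHB reads was 2.72 times as high as that at 6 months (2.54 to 2.90), a difference of -1.43 log2 units. A difference below that of LDHB was found for 21.1% of the accessions compared. The median log2 ratio of 6-month to fetal RPKM was -0.58 over the 8201 accessions that reached 1 RPKM at both stages. Once this general shift was removed, the LDHB difference was -0.86 and no longer called, while that of ENO1 was -1.25. The share of all accessions called was then 17.2% for higher at 6 months and 22.3% for higher in fetal muscle.

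The LDHA level was 21.0 times that of LDHB at 6 months (19.8 to 22.3) and 1.18 times that of LDHB in fetal muscle (1.14 to 1.23). LDHA made up 95.4% of the summed LDHA and LDHB RPKM at 6 months and 54.1% in fetal muscle. The 6-month ratio was 17.8 times the fetal ratio (16.6 to 19.1), again whatever the scaling between libraries. The sum over both subunits was 2148 RPKM at 6 months and 579 RPKM in fetal muscle, 3.71 times as high at 6 months. The interval for this pair lay below that for the enolases, so both values differed beyond counting error, while the spread between animals is unknown.

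**Figure D3:**
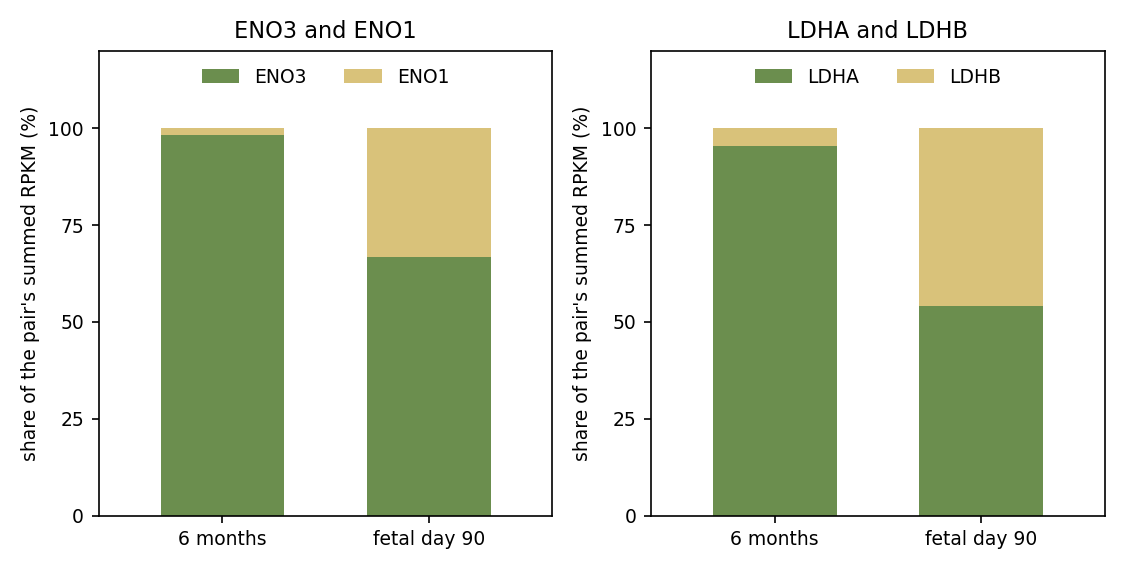
Share of each isozyme in the summed RPKM of its pair (%), for ENO3 and ENO1 on the left and for LDHA and LDHB on the right, with 1 bar for each library. ENO3 takes 98.3% at 6 months and 66.8% in fetal muscle, and LDHA takes 95.4% and 54.1% in the same order.

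The order of the members by RPKM differed between the libraries. At 6 months it ran GAPDH, ENO3, PYGM, LDHA, TPI1, PFKM, PGK1, LDHB and ENO1, with 248 times as much GAPDH as ENO1. In the fetal library it ran GAPDH, ENO3, TPI1, LDHA, ENO1, LDHB, PYGM, PGK1 and PFKM, with 30.5 times as much GAPDH as PFKM. Per listed length, every pair of neighbours in either order differed beyond counting error. In fetal muscle the closest neighbours were ENO1 and LDHB, with a level ratio of 1.04 (1.003 to 1.084), followed by TPI1 and LDHA at 1.07 (1.03 to 1.11). At 6 months they were LDHA and TPI1, with a ratio of 1.13 (1.11 to 1.15). The order was not recomputed per covered base. In fetal muscle reads touched 92.78% of TPI1 and 88.24% of LDHA, so the order of close neighbours rests on the listed lengths. GAPDH and ENO3 held the leading places at both stages, whereas PYGM stood directly below them at 6 months and below both LDHB and ENO1 in fetal muscle.

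Levels relative to GAPDH in the same library do not depend on the read total either. PYGM stood at 19.8% of the GAPDH RPKM at 6 months and 6.11% in fetal muscle, 3.24 times as high at 6 months (3.15 to 3.33). PFKM stood at 4.42% and 3.28% of GAPDH in those libraries, 1.35 times as high at 6 months (1.30 to 1.40). ENO3 stood at 22.9% of GAPDH at 6 months and 20.9% in fetal muscle, 1.09 times as high at 6 months (1.07 to 1.12).

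Relative to GAPDH, the other 5 members were lower at 6 months. LDHA stood at 10.7% of GAPDH at 6 months and 11.8% in fetal muscle, a 6-month ratio 0.905 times the fetal one (0.880 to 0.930). TPI1 stood at 9.45% at 6 months and 12.6% in fetal muscle (0.750 times, 0.727 to 0.773), and PGK1 at 3.07% and 4.70% in those libraries (0.653 times, 0.626 to 0.682). ENO1 stood at 0.402% of GAPDH at 6 months and 10.4% in fetal muscle, and LDHB at 0.509% and 9.99%. The 7 transcripts called higher at 6 months thus did not differ by a single factor. The ratio between stages was 4.96 times as large for PYGM as for PGK1 (4.72 to 5.21) and 2.40 times as large for PYGM as for PFKM (2.29 to 2.51), which came next.

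**Figure D4:**
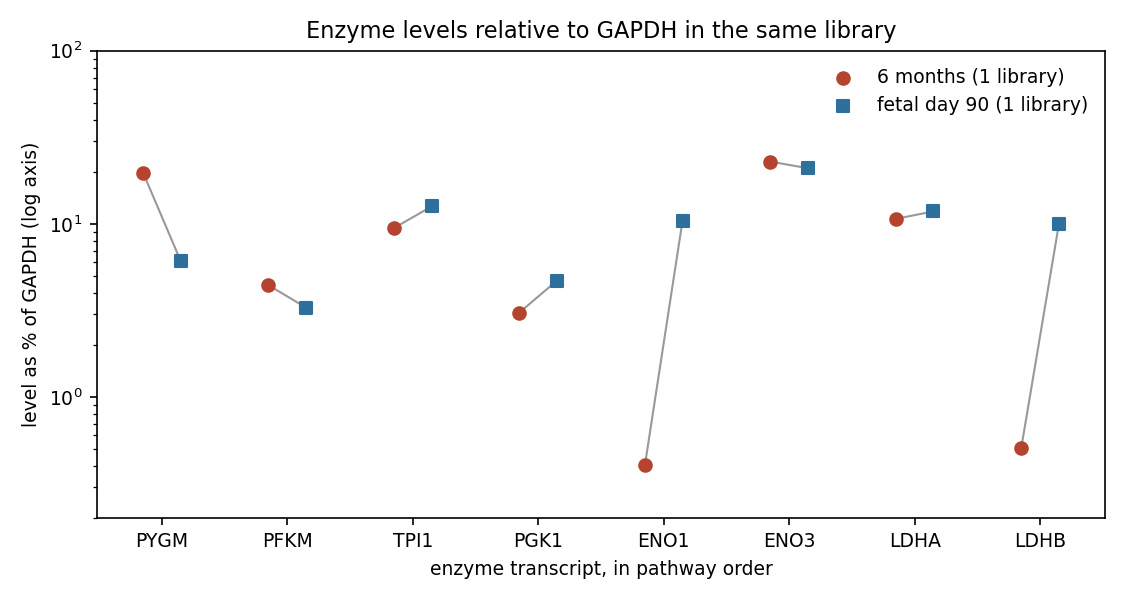
Level of 8 enzyme transcripts as a percentage of the GAPDH RPKM of the same library (log axis), with 1 point for the 6-month library (circles) and 1 for the fetal library (squares). PYGM is higher at 6 months (19.8% against 6.11%), the ratios of ENO3, LDHA, PFKM, TPI1 and PGK1 between stages lie between 0.653 and 1.35, and ENO1 (0.402% against 10.4%) and LDHB (0.509% against 9.99%) are far lower at 6 months.

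The authors' coverage, the percentage of the listed transcript touched by reads, was close in both libraries for most members. It was 94.36% at 6 months and 94.15% in fetal muscle for PYGM, 87.72% and 87.49% for GAPDH, and 99.45% and 98.42% for ENO3. In bases, PFKM had the most bases without reads, 346 bases at 6 months and 356 in fetal muscle, with 21971 and 3155 reads in the same order. LDHB was the exception, with 84.06% covered at 6 months and 92.5% in fetal muscle, that is 204 and 96 bases without reads. Its 1144 reads at 6 months were the fewest of any member in either library. ENO1, with 1276 reads at 6 months, had 90.42% covered at 6 months and 91.69% in fetal muscle. Counted per covered base instead of per listed base, the ENO3 to ENO1 ratio was 51.7 at 6 months and 1.87 in fetal muscle, and the LDHA to LDHB ratio 19.9 and 1.24.

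**Figure D5:**
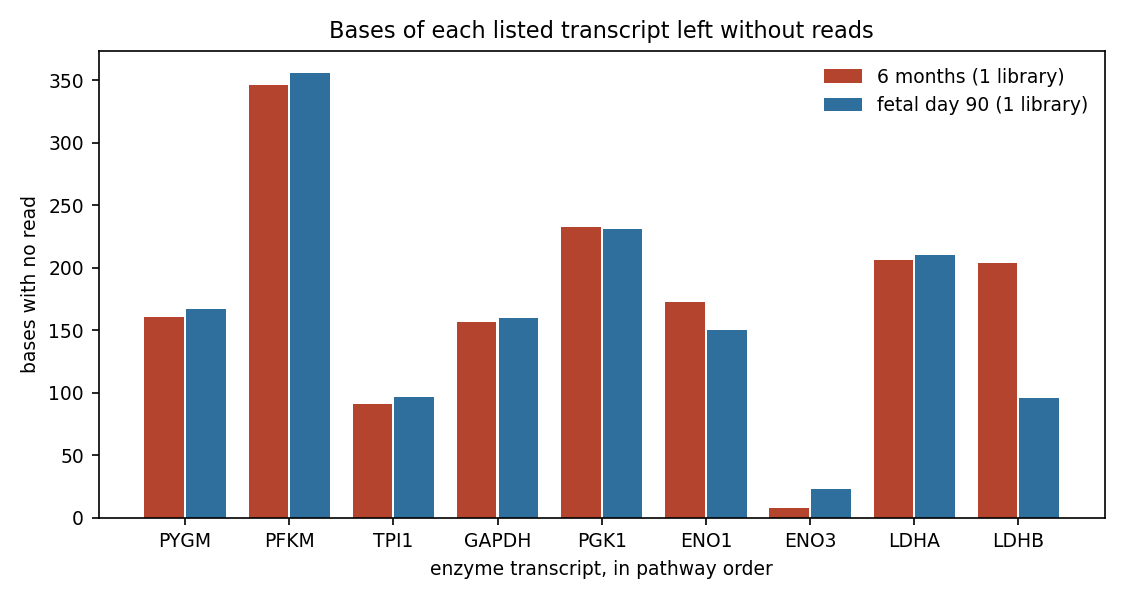
Number of bases of each listed transcript with no read, computed from the authors' coverage and length, with 1 bar for the 6-month library and 1 for the fetal library. LDHB has the widest gap, with 204 bases at 6 months and 96 in fetal muscle. ENO1 (173 against 150) and ENO3 (8 against 23) differ by fewer bases, and the bars of each other transcript are close in height.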

How the data were processed

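Per the labels' protocols, Trizol was used for RNA and standard Illumina methods for the libraries. The sampling text is the same for both samples and describes the fetuses. The authors deposited, per the file headers, the RPKM of every accession, its count of unique reads, its coverage in percent and its length. The sources used here do not name the aligner, counting rules, strand use or build. The deposited counts summed to the header totals, and the authors' RPKM was recovered from them. A missing accession has 0 reads, which allows a share of up to 3.28e-05% of the 6-month and 2.34e-05% of the fetal reads (3 counts).

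With 1 library per stage no test was run. Differences were taken on log2(RPKM + 1), with a minimum RPKM of 1 in either library. Read ratios carry exact conditional binomial (Clopper-Pearson) 95% intervals and ratios of ratios exact conditional odds ratio intervals. The procedure was tested on simulated counts that held counting error but no spread between animals, so that check does not bear on differences between stages. The named genes are the 9 members. Members, lists and alternatives (pseudocount, minimum, threshold, scaling, length) were chosen with earlier results of these data known. Values were computed in Python 3.11.15 with SciPy 1.17.1, NumPy 2.4.6 and pandas 2.3.3, and plots with matplotlib 3.10.9. Sequences were not analysed here.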

Additional observations from a re-analysis of the deposited data

How the results depend on the processing

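In all 11 alternatives 7 of the 9 enzymes were called higher at 6 months, and none of the 9 differences changed sign. Another minimum or threshold cannot alter a difference, and each of the 9 exceeded every minimum tried, so those settings do not probe the sign. Of 90 differences recomputed, 44 lay outside the counting interval around the main value, 46 lay inside it and 0 reversed. Those inside include every difference under another minimum, which returns the main value exactly. The number inside is therefore not a measure of stability. The number called higher in fetal muscle was 1 with either centring (LDHB was not called, ENO1 was) and 0 with a threshold of 2 log2 units. The share of all accessions called higher in fetal muscle was 22.3% and 22.2% with the centrings and 10.8% with that threshold. For higher at 6 months, the share over the alternatives ran from 3.49% (threshold of 2) to 29.4% (minimum of 100 RPKM). Over all accessions, 6-month calls made up 21.2% of calls on the deposited RPKM and 43.6% after centring on the median ratio. By setting, the PYGM difference ranged from 4.51 to 5.12 log2 units, that of PGK1 from 2.20 to 2.81 and that of ENO1 from -1.84 to -1.25.

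The isozyme ratios depend on length. Per covered base, ENO3 to ENO1 was 51.7 at 6 months and 1.87 in fetal muscle, and the fetal LDHA to LDHB ratio was 1.24. As reads not divided by length, ENO3 to ENO1 was 45.8 at 6 months and 1.62 in fetal muscle, and LDHA to LDHB 29.3 and 1.65. The 50 accessions with the highest RPKM summed over both libraries included GAPDH and no other member. Without these 50, the 8 remaining enzymes took 4.09% of the reads left at 6 months and 0.463% of those left in fetal muscle. The same 8 took 2.71% and 0.360% of all reads. All 9 enzymes took 5.04% of length-normalised reads at 6 months and 0.680% in fetal muscle. No paired analysis was possible because each stage has 1 library, and for the same reason no library could be left out. Depth limits the counting error alone.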
